A study of Homo sapiens with 6 samples.

Results

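The small subunit of the mitochondrial ribosome was followed in A549, a cell line derived from a human lung adenocarcinoma, through the genes that encode its proteins. Members were taken as all genes with an MRPS symbol, together with DAP3, PTCD3, CHCHD1 and AURKAIP1, whose proteins belong to the same subunit under other names. Probe sets annotated to exactly 1 such symbol were used, and each gene was represented by its probe set with the highest mean over the 6 arrays. This gave 31 members of 18244 genes on the array, and AURKAIP1 was not analysed here. The knockdown group (KD, 3 arrays) was A549 cells given lentivirus with a short hairpin against MRPL35, a protein of the large mitochondrial ribosomal subunit, and the control group (NC, 3 arrays) was A549 cells given lentivirus with a control hairpin. The hairpin sequences, the number of hairpins behind each virus and the time between infection and harvest are not given in the sources used here. The comparison asks what happens to the partner subunit's genes when MRPL35 is lowered.

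The mitochondrial ribosome translates the few proteins that mitochondrial DNA encodes, all of them parts of the respiratory chain and ATP synthase. Its small subunit holds the 12S ribosomal RNA, binds the messenger RNA and reads the codons, while its large subunit joins the amino acids. All its proteins are encoded in the nucleus and imported. Some descend from bacterial ribosomal proteins, and others were added in the mitochondrion during evolution. The MRPS symbols do not follow the final structure throughout, since the proteins of MRPS18A and MRPS30 sit in the large subunit.

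The arrays separated by group. MRPL35 had log2 probe-set values of 6.49, 6.44 and 6.56 in the KD arrays and 8.16, 8.05 and 8.36 in the NC arrays (replicates 1 to 3, the order kept throughout), a change of -1.69 ± 0.0962 (log2, limma estimate ± SE). Arrays of 1 group correlated at 0.9972 or above in KD and 0.9941 or above in NC, against at most 0.9798 between groups (Pearson's r over genes, taken as a description). NC replicate 2 lay apart from the other arrays on the second principal component, which carried 11.8% of the variance. The 8 epithelial and A549 markers looked at had group means of 6.08 to 13.9 in KD and 5.87 to 13.48 in NC, with EPCAM the dim exception. Of these 8, 6 were called higher in KD, from ALDH1A1 (0.34, limma adjusted p = 0.0194) to CDH1 (1.31, 3.96e-05), and none lower. The 13 markers of fibroblasts, leukocytes and endothelium had 2.47 to 7.03 in KD and 2.57 to 6.88 in NC. Among them CD14 was called higher (0.60, limma adjusted p = 0.00293) and none lower. Of all genes 17.6% were called higher and 15.9% lower. In a fit limited to genes above the 40th percentile of mean probe-set value the shares were 29.2% and 26.2%. The part of these marker changes in the results was not tested. Separate cultures are not named in the labels, and the p-values therefore reflect the spread between these 6 samples alone, part or all of which may be technical. In these bulk samples a lower level in every cell and a smaller share of cells with the RNA cannot be told apart.

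Most small-subunit genes moved little in KD, and those that passed the test were mainly lower. Of the 31 genes 11 fell and 1 rose, and the other 19 did not pass (limma, Benjamini-Hochberg adjusted p under 0.05 over all genes). The falls make 35.5% of the members, where 15.9% of all genes were called lower, and the rise makes 3.23%, where 17.6% of all genes were called higher. In either direction 33.5% of all genes were called. The median change was -0.13 over the members and -0.02 over all genes (log2, KD minus NC). All KD arrays lay below all NC arrays for 17 members, a pattern met by 21.5% of all genes, and above them for 3 members, a pattern met by 23.2% of all genes. Every member passed a filter at the 40th percentile of mean probe-set value, and in the 10946 genes above it 26.2% were called lower and 29.2% higher, with 12 and 2 of the members called in that fit. At least 2-fold falls were found in 2 of the 31 members, against 3.09% of all genes. For the 19 members that did not pass, the 95% intervals of the change on the brightest probe set lay between -0.41 and 0.44 on the log2 scale. These intervals are not adjusted for the number of genes. A dimmer probe set was called lower in 5 of the 19, with MRPS16 at -0.51 the largest of these changes.

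**Figure D1:**
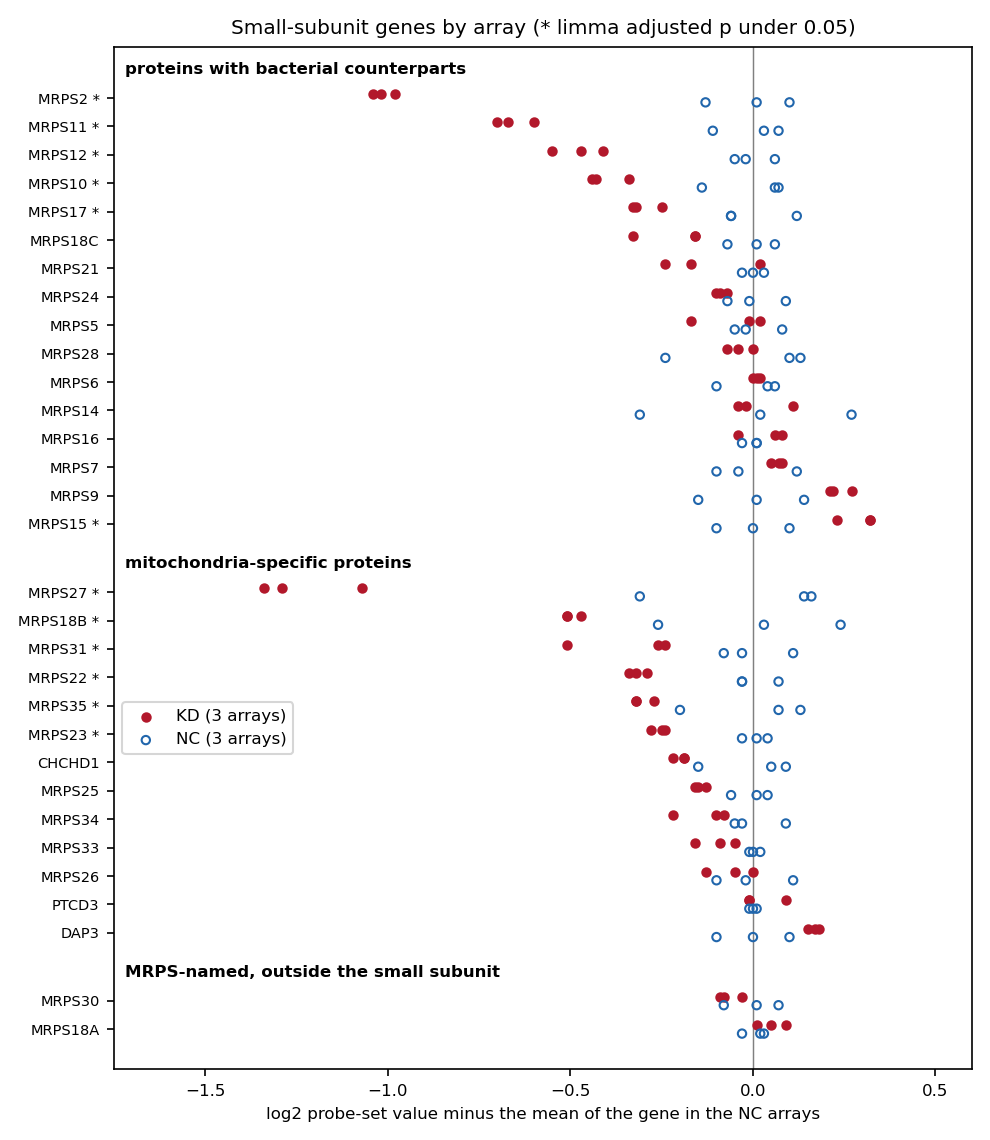
Log2 probe-set value of each small-subunit gene in each array, with the gene's mean in the NC arrays subtracted (filled red, the 3 KD arrays; open blue, the 3 NC arrays; asterisk, limma adjusted p under 0.05). The KD arrays lie clearly to the left of the NC arrays for MRPS27 and MRPS2, while for most other genes the distance between groups is below 0.5.

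On the brightest probe set of each gene MRPS27, MRPS2 and MRPS11 fell most, while MRPS17 changed by -0.30 on that probe set, -0.86 with its probe sets averaged and -1.15 without x and s probe sets, the types that can match several transcripts or genes. MRPS27, a pentatricopeptide-repeat protein of the small subunit that binds mitochondrial RNA, measured 7.40, 7.18 and 7.13 in the KD arrays, against 8.61, 8.16 and 8.63 in the NC arrays. The groups were well apart, although NC replicate 2 lay nearer to the KD arrays than the other NC arrays. The change was -1.23 ± 0.137 (log2, ± SE; limma adjusted p = 0.000146), which leaves 42.6% of the NC signal. Its 3 other probe sets changed by -1.24, -1.11 and -1.02, so that all 4 probe sets fell.

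MRPS2, the counterpart of the bacterial small-subunit protein S2, measured 8.42, 8.40 and 8.46 in the KD arrays, against 9.45, 9.31 and 9.54 in the NC arrays. The KD arrays were tightly grouped and far below every NC array. The change was -1.01 ± 0.0851 (limma adjusted p = 3.07e-05), a 2.02-fold lower level, and it rests on a single probe set. MRPS11, the counterpart of bacterial S11, a protein of the subunit's platform, measured 9.51, 9.44 and 9.41 in the KD arrays, against 10.14, 10.00 and 10.18 in the NC arrays. Here too no KD array reached an NC array. MRPS11 changed by -0.65 ± 0.0826 (limma adjusted p = 0.000309), or 1.57-fold lower. Of its 6 probe sets 5 fell, and the 4 brightest changed by -0.62 to -0.67. The dimmest, with a mean of 3.72, changed by -0.28 (limma adjusted p = 0.03 over all probe sets). The next dimmest, with a mean of 4.61, changed by -0.22 and did not pass.

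The promoter windows of these 3 genes, of the only member that rose (MRPS15) and of MRPS10 are shown, the last as a window that holds several of the motifs compared below. They run from 250 bases before to 50 bases after the annotated start, are read 5′ to 3′ on the gene's strand, and come from RefSeq on GRCh38.p14. Capitals mark every match, on either strand, to an E-box (CACGTG, bound by MYC and related factors), an ETS motif (CCGGAAG), a YY1 motif (AAGATGGCG), a GC box (GGGCGG) or a CCAAT box (CCAAT). The window of MRPS11 holds none of them and so has no capitals, and no 2 matches overlap in the windows shown. MRPS2 has a second annotated window, which is not printed and holds 3 GC boxes and no other of these motifs.
MRPS27 (chr5:72320191-72320490, minus strand): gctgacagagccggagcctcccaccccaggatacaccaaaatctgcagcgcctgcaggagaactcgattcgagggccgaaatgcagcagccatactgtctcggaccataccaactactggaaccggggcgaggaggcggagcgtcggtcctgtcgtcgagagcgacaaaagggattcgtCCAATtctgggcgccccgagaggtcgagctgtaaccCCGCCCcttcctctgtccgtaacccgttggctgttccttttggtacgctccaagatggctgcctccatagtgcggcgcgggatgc
MRPS2 (chr9:135499715-135500014, plus strand): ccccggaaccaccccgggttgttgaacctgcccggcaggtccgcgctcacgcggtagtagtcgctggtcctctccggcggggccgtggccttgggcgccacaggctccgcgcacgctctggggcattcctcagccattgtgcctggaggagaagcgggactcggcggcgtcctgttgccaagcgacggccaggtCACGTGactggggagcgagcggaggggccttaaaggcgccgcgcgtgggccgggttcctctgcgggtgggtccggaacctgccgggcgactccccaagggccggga
MRPS11 (chr15:88467458-88467757, plus strand): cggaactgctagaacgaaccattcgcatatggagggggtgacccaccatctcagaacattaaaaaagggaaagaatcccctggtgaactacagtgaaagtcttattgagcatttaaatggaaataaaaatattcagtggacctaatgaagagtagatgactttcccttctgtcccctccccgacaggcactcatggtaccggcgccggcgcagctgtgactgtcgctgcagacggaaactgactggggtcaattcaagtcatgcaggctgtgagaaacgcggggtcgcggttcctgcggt
MRPS15 (chr1:36464335-36464634, minus strand): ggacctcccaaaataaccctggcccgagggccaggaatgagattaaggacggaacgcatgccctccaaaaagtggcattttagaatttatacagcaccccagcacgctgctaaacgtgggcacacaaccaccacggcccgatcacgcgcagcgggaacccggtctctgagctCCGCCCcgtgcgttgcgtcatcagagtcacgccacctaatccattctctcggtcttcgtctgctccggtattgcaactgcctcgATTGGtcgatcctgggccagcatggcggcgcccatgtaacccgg
MRPS10 (chr6:42217812-42218111, minus strand): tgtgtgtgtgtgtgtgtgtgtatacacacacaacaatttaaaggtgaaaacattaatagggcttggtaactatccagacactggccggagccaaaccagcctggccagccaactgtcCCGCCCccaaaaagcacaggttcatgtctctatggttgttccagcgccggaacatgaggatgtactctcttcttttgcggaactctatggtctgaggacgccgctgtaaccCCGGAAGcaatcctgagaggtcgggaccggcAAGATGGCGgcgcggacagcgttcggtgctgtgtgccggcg

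Windows were found for 30 members, 37 windows in all. The ETS motif was in 14 of the 37 (37.8%), against 10.2% of the 34943 windows of all genes in the table. Those windows belong to 27166 genes, more than the 18244 fitted, and were not limited by level. Several windows of 1 gene were counted separately. The YY1 motif was in 6 of 37 (16.2%), against 1.75% of all windows. MRPS10, chosen for display after its letters were seen, holds both, the ETS motif 22 bases before its start and the YY1 motif 10 bases inside the transcript. GC boxes were in 67.6% of the members' windows and in 44.9% of all, and CCAAT boxes in 35.1% and 34.6%. The E-box was in 3 of the 37 member windows (8.11%), those of MRPS2, MRPS18C and MRPS33, against 7.23% of all windows, and in MRPS2 it begins 56 bases before the start. The NRF1 motif, searched in its palindromic consensus form, was in 0 of the 37 and in 1.23% of all windows. Among the 15 windows of the members that fell, 7 held the ETS motif (46.7%), 2 the YY1 motif (13.3%) and 1 the E-box (6.67%). Among the 22 windows of the other members the counts were 7 (31.8%), 4 (18.2%) and 2 (9.09%). The 7 ETS windows of members that fell came from MRPS10, MRPS12, MRPS22, MRPS23 and MRPS31. These matches are descriptions of the letters and were not tested against the changes in level.

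Among the 16 proteins with bacterial counterparts, 5 genes were called lower (31.2%, against 15.9% of all genes) and 1 higher (6.25%, against 17.6%). In the fit without dim genes, which keeps every member, 26.2% of genes were called lower and 29.2% higher. The median change of the 16 was -0.07. Besides MRPS2 and MRPS11 the genes called lower were MRPS12, MRPS10 and MRPS17. MRPS12, whose bacterial counterpart S12 lies at the decoding centre, measured 10.78, 10.92 and 10.86 in the KD arrays, against 11.31, 11.28 and 11.39 in the NC arrays. Both groups were narrow and did not overlap. Its change was -0.47 ± 0.0783 (limma adjusted p = 0.00145). The 3 other probe sets of MRPS12 did not pass and changed by 0.02, 0.17 and 0.16, and with the mean of all its probe sets the gene changed by -0.03 (limma adjusted p = 0.804). The fall of MRPS12 therefore rests on its brightest probe set.

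MRPS10, the counterpart of S10 in the head of the subunit, measured 7.86, 7.76 and 7.77 in the KD arrays, against 8.26, 8.06 and 8.27 in the NC arrays. The groups did not overlap, with NC replicate 2 the lowest control. It changed by -0.40 ± 0.0874 (limma adjusted p = 0.00664), a second probe set fell by 0.47 on the log2 scale, and the dimmest changed by -0.14 and did not pass. MRPS17, the counterpart of S17, which binds ribosomal RNA early in assembly in Escherichia coli, measured 8.52, 8.59 and 8.51 in the KD arrays, against 8.78, 8.78 and 8.96 in the NC arrays. The brightest probe set put every KD array below every NC array by a small margin. The change was -0.30 ± 0.0825 (limma adjusted p = 0.0205), and the call depended on KD replicate 1 (0.0687 without it), KD replicate 3 (0.0835 without it) and NC replicate 3 (0.0599 without it). Its 2 dimmer probe sets fell further, by 1.11 and 1.15 on the log2 scale, and a probe set that also names ZNF713 changed by -0.27 (limma adjusted p = 0.0435 over all probe sets). How far the deeper falls come from different MRPS17 transcripts was not tested.

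MRPS15 was the only member called higher. It is the counterpart of S15, which in bacteria joins the ribosomal RNA early and touches the large subunit. It measured 10.67, 10.76 and 10.76 in the KD arrays, against 10.44, 10.34 and 10.54 in the NC arrays. All KD arrays lay above all NC arrays, but the nearest KD and NC values (10.67 and 10.54) were closer together than the lowest and highest NC arrays. The change was 0.29 ± 0.0835 (limma adjusted p = 0.0238). The call ended with KD replicate 2 left out (0.089), with KD replicate 3 left out (0.0919) and with NC replicate 1 left out (0.0617), as did averaging its probe sets (0.16, adjusted p = 0.148), of which the second is dim and changed by 0.03. MRPS9, the counterpart of S9, which reaches towards the peptidyl site in bacteria, also had its groups apart, at 8.41, 8.42 and 8.47 in KD against 8.21, 8.05 and 8.34 in NC. It changed by 0.23 ± 0.0913 and did not pass (limma adjusted p = 0.0877), but passed without NC replicate 3 (0.0394), with quantile normalization (0.0335), with trend and robust fitting (0.0419) and without dim genes (0.0446).

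The other bacterial-type members did not pass. MRPS18C (-0.22), MRPS21 (-0.13) and MRPS24, the counterpart of S3 (-0.09), had negative estimates. MRPS24, the member with the brightest probe set, measured 11.17, 11.19 and 11.16 in the KD arrays, against 11.25, 11.19 and 11.35 in the NC arrays, groups that almost touch. The estimates were within 0.07 of 0 for MRPS5, MRPS28, MRPS6, MRPS14, MRPS16 and MRPS7, the last of which has the counterpart S7 that starts assembly of the head in Escherichia coli. MRPS14 had the widest control spread of the members, with NC replicates 1 to 3 at 9.34, 8.76 and 9.09 around KD values of 9.03, 9.18 and 9.05. MRPS6, at 8.49 ± 0.00962 in KD and 8.48 ± 0.0884 in NC (mean ± SD, n = 3 each), changed by 0.01.

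Some members share their place in the genome with another gene. SLC5A3, a myo-inositol transporter gene that lies within the span of MRPS6, rose by 0.66 ± 0.122 (limma adjusted p = 0.00277), while MRPS6 itself changed by 0.01. SLC5A3 was measured on an s probe set and has no value without x and s probe sets. SARS2, the mitochondrial seryl-tRNA synthetase gene that starts next to MRPS12 on the opposite strand, fell by 0.35 on the log2 scale (limma adjusted p = 0.015), a call lost without KD replicate 3 (0.0632) or NC replicate 3 (0.0513) and with its probe sets averaged (-0.18, 0.102). PPP1R10, which starts next to MRPS18B on the opposite strand, changed by -0.33 and did not pass (limma adjusted p = 0.0647), but passed in 5 of the 14 alternative settings, 1 of them without NC replicate 1 (0.0339). MRPS16 neighbours DNAJC9, a histone co-chaperone gene named here after its values were seen, which fell by 1.25 on the log2 scale (limma adjusted p = 4.97e-06), or by 0.46 with its probe sets averaged (0.00629). A probe set that names both DNAJC9 and MRPS16 averaged 7.63 in KD and 8.63 in NC (limma adjusted p = 7.37e-05 over all probe sets). The probe sets that name MRPS16 alone changed by 0.04, -0.02 and -0.51, and only the dimmest of these passed (0.0166).

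Another 13 measured genes encode proteins specific to mitochondrial ribosomes, counting MRPS18B, a relative of bacterial S18 that takes a mitochondria-specific place. Of these 6 were called lower (46.2%, against 15.9% of all genes) and 0 higher (against 17.6%). Without dim genes, a fit that keeps every member, the shares of all genes were 26.2% lower and 29.2% higher. The median change of the 13 was -0.20, against -0.02 over all genes. MRPS27 is described above. MRPS18B measured 8.44, 8.44 and 8.48 in the KD arrays, against 9.19, 8.69 and 8.98 in the NC arrays. The KD arrays were nearly identical and the NC arrays widely spread, with NC replicate 2 the lowest. The change was -0.50 ± 0.121 (limma adjusted p = 0.0112), with a second probe set at -0.31 that did not pass (0.0639).

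MRPS22, in which inherited defects cause combined respiratory chain deficiency, measured 8.28, 8.25 and 8.23 in the KD arrays, against 8.54, 8.54 and 8.64 in the NC arrays. Both groups were tight and separate. It changed by -0.32 ± 0.0747 (limma adjusted p = 0.00917), and its other probe set fell too, by 0.26 on the log2 scale. MRPS31, the member with the dimmest probe set, measured 7.18, 6.93 and 7.20 in the KD arrays, against 7.55, 7.36 and 7.41 in the NC arrays. KD replicate 2 lay well below the other KD arrays. The change was -0.34 ± 0.0996 (limma adjusted p = 0.029). The call of MRPS31 was lost without KD replicate 2 (0.117), NC replicate 1 (0.101) or NC replicate 3 (0.0628). It was also lost with the probe sets averaged (-0.23, adjusted p = 0.0625), of which the second is dim (mean 2.91) and changed by -0.13.

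MRPS35 measured 10.37, 10.32 and 10.32 in the KD arrays, against 10.71, 10.44 and 10.77 in the NC arrays. NC replicate 2 stood close above the KD arrays and apart from the other controls. The change was -0.30 ± 0.0988 (limma adjusted p = 0.0446), and leaving out any array except NC replicate 2 put it past the threshold, at 0.0895, 0.123 and 0.129 without KD replicates 1, 2 and 3, 0.132 without NC replicate 1 and 0.137 without NC replicate 3. MRPS23 measured 10.28, 10.25 and 10.29 in the KD arrays, against 10.57, 10.54 and 10.50 in the NC arrays. Both groups were tight. The change was -0.26 ± 0.0723 (limma adjusted p = 0.0218), a call lost without KD replicates 1 (0.0669), 2 (0.0871) and 3 (0.0714), each in turn, and without NC replicate 1 (0.0666).

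Among the other mitochondria-specific proteins that did not pass, CHCHD1 had every KD array below every NC array, at 10.33, 10.36 and 10.36 in KD against 10.60, 10.40 and 10.64 in NC. It changed by -0.20 (limma adjusted p = 0.123) and passed without NC replicate 2 (-0.27, adjusted p = 0.018), with trend and robust fitting (0.024) and with array weights (0.0229). MRPS25 (-0.14), MRPS34 (-0.14), MRPS33 (-0.10) and MRPS26 (-0.06) were slightly negative. PTCD3, a pentatricopeptide-repeat protein like MRPS27, changed by 0.02 on its brightest probe set and by -0.20 with its probe sets averaged (limma adjusted p = 0.0565). DAP3, a GTP-binding protein first found in a screen for genes of cell death, measured 10.08, 10.09 and 10.06 in the KD arrays, against 10.01, 9.81 and 9.91 in the NC arrays. All 5 of its probe sets had positive estimates of 0.06 to 0.16, and none passed (limma adjusted p = 0.195 or above over all probe sets).

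The 3 MRPS18 paralogs, which share descent from bacterial S18, gave different values. MRPS18B fell, as given above. MRPS18C, the paralog with the role of S18 in the small subunit, measured 9.01, 9.18 and 9.18 in the KD arrays, against 9.35, 9.27 and 9.40 in the NC arrays. Its groups were apart, but its change of -0.22 ± 0.0844 did not pass (limma adjusted p = 0.0846), but it passed in 6 of the 14 alternative settings, without NC replicate 2 (-0.25, 0.0457) and, among others, with its probe sets averaged (-0.29, 0.015). Its second probe set fell by 0.34 on the log2 scale (limma adjusted p = 0.0121 over all probe sets), and its dimmest changed by -0.32 without passing (0.0624). MRPS18A, the paralog of the large subunit, measured 8.01, 7.97 and 7.93 in the KD arrays, against 7.89, 7.94 and 7.95 in the NC arrays. The groups overlapped, with a change of 0.05 ± 0.0737 (limma adjusted p = 0.686) and a 95% interval of -0.12 to 0.22. The differences between the paralogs' changes were not tested.

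The other MRPS-named proteins placed elsewhere moved little. MRPS30, also a large-subunit protein, measured 8.32, 8.33 and 8.38 in the KD arrays, against 8.48, 8.33 and 8.42 in the NC arrays. The groups overlapped, and the change was -0.07 (limma adjusted p = 0.593). KGD4, formerly MRPS36 and known as an adaptor of the 2-oxoglutarate dehydrogenase complex, is outside the member rule under its present symbol and changed by 0.09 (limma adjusted p = 0.561), or by -0.22 with its probe sets averaged (0.193). Without MRPS18A and MRPS30, 11 of the remaining 29 members fell (37.9%) and the median was -0.14. Over all genes 15.9% were called lower, or 26.2% in the fit without dim genes, and the median was -0.02.

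Probe sets of the same gene were compared for the 20 members that have several. Of 77 single-symbol probe sets of members 28 were called lower and 1 higher, where 14.1% of all probe sets were called lower and 16.5% higher (limma, adjusted over all probe sets). Lower calls numbered 18 without KD replicate 2 and 18 without KD replicate 3, and the higher call was lost without each array except NC replicate 3. All probe sets of a gene were negative for 10 of the 20 members, all positive for 4 and of both signs for 6. In no member did probe sets pass in opposite directions. For 5 members whose brightest probe set did not pass, a dimmer one fell. These were MRPS16 (-0.51), MRPS25 (-0.34 and -0.42), MRPS18C (-0.34), PTCD3 (-0.31) and MRPS21 (-0.30). PTCD3 had all 5 of its dimmer probe sets negative, from -0.14 to -0.36, and its brightest at 0.02. MRPS35 passed on its second probe set (limma adjusted p = 0.044) and narrowly missed on its brightest when adjusted over all probe sets (0.0518).

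**Figure D2:**
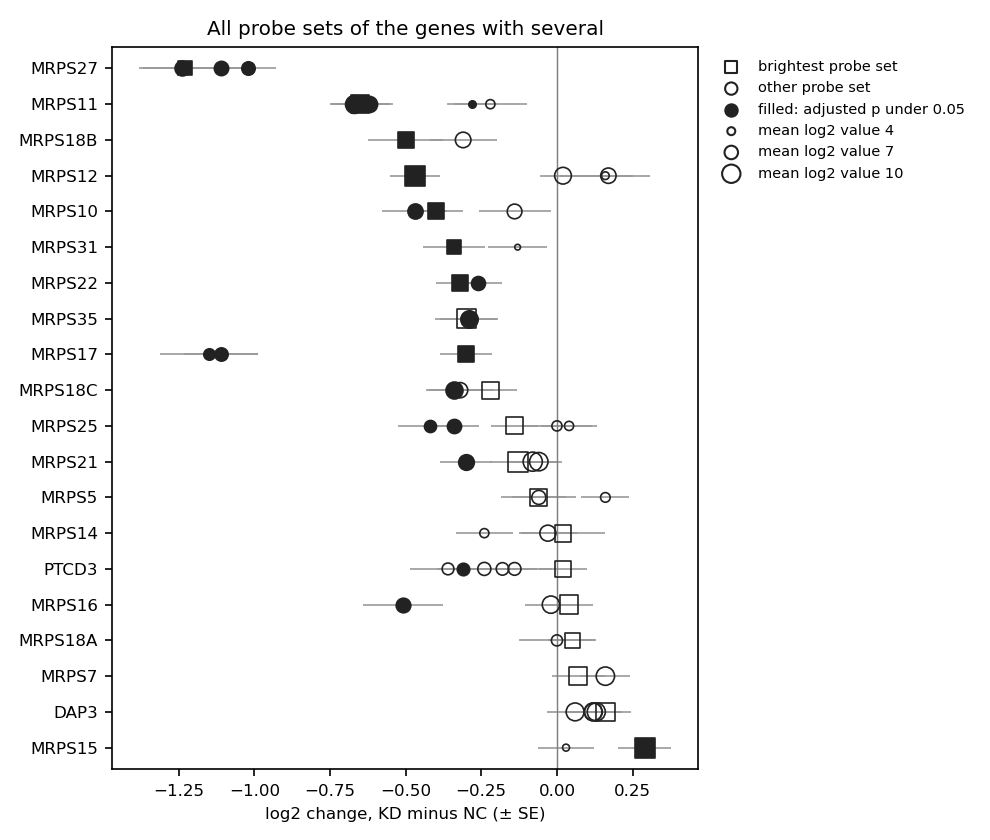
Log2 change (KD minus NC, ± SE) of every single-symbol probe set of the 20 members with several, 1 row per gene (square, brightest probe set; circle, other probe set; filled, adjusted p under 0.05 over all probe sets; size, mean log2 value). The 4 probe sets of MRPS27 lie together between -1.24 and -1.02, while MRPS12, MRPS16 and MRPS17 each have probe sets far apart.

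The NC arrays varied more than the KD arrays, for these genes as for genes in general. The median SD of a member was 0.0418 in KD and 0.0955 in NC (log2, n = 3 each). Over NC replicates 1 and 3 alone it was 0.0493, an SD of 2 values that cannot be compared directly with SDs of 3. Over all genes the median SD was 0.0853 in KD, 0.129 in NC and 0.0731 over NC replicates 1 and 3 alone. The NC SD (n = 3) was larger than the KD SD for 69% of all genes and 67.7% of the members. NC replicate 2 was the lowest NC array for 21 of the 31 members (67.7%), for 35 of the 47 large-subunit genes (74.5%) and for 37.7% of all genes. The median difference of the members from their NC means was -0.08 in NC replicate 2, against -0.17, -0.09 and -0.11 in KD replicates 1 to 3. Without NC replicate 2, 13 members fell and 1 rose, and the median was -0.153. Calls over all genes then numbered 3279 lower and 3467 higher, against 2903 and 3207 with all arrays. The part of this array in the results was not tested beyond leaving it out.

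Other genes assemble the small subunit or modify its ribosomal RNA. Of 10 measured, 3 were called lower (30%, against 15.9% of all genes) and 1 higher (10%, against 17.6%). In either direction 33.5% of all genes were called. Without dim genes 26.2% of genes were called lower and 29.2% higher. The estimates of these assembly and modification genes were negative for 8 and positive for 2, with a median of -0.09. With averaged probe sets 4 were called lower and 0 higher. METTL17, an assembly factor (-0.44 ± 0.0813, limma adjusted p = 0.00259), NOA1, a GTPase (-0.37 ± 0.0738, 0.0039), and ERAL1, a GTPase that chaperones the 12S RNA (-0.27 ± 0.0797, 0.0272), fell. The call of ERAL1 was lost without KD replicates 1 (0.0871), 2 (0.0954) and 3 (0.0688), each in turn, and without NC replicate 3 (0.0772). NSUN4, a methyltransferase of the 12S RNA, rose by 0.65 ± 0.103 (limma adjusted p = 0.0011), but changed by 0.09 with the mean of its probe sets (0.456). RBFA, METTL15, MTERF4, TFB1M, YBEY and TRMT2B did not pass.

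The factors that work on the assembled ribosome were lower in 5 of 9 (55.6%, against 15.9% of all genes) and higher in 1 (11.1%, against 17.6%), with a median of -0.31. In the fit without dim genes 26.2% of genes were called lower and 29.2% higher. MTRF1, a release factor family member (-0.62 ± 0.0945, limma adjusted p = 0.000906), MRRF, which recycles ribosomes (-0.36 ± 0.0757, 0.00515), GFM1, the translocating elongation factor (-0.33 ± 0.108, 0.0428), and TSFM, which recharges elongation factor Tu (-0.33 ± 0.0745, 0.0081), fell. MTRF1 was measured on a dim x probe set, with means of 4.85 in KD and 5.47 in NC, and has no value without dim genes. It did not pass with x and s probe sets left out (-0.24, 0.187). The call of GFM1 was lost without each array except NC replicate 2, with adjusted p of 0.068 to 0.15. The fifth, MRPL58, which frees stalled ribosomes and is also a large-subunit protein, changed by -0.31 (limma adjusted p = 0.0339) and was lost without the same arrays (0.0683 to 0.122), so that the falls numbered 3 without each of these arrays. MTIF3, the initiation factor that binds the small subunit and the single rise, changed by 0.30 (limma adjusted p = 0.0332). Its call was lost without KD replicates 2 (0.113) and 3 (0.12), each in turn, without NC replicate 2 (0.0542) and with median centring (0.0597), and its estimate turned to -0.31 (0.12) with x and s probe sets left out and to -0.01 (0.965) with its probe sets averaged.

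The large subunit, apart from MRPL35, was similar in its counts. Its 47 genes gave 18 lower calls (38.3%), 2 higher calls (4.26%) and a median of -0.18. MRPL58 is counted here as well as among the factors that work on the assembled ribosome. The small-subunit list gave 11 of 31 (35.5%), 1 of 31 (3.23%) and -0.13. Over all genes 15.9% were called lower and 17.6% higher, with a median of -0.02, and without dim genes 26.2% and 29.2%. The changes ran from -2.00 to 0.95 in the large subunit and from -1.23 to 0.29 in the small. Both lists come from the same fit and the same 6 arrays, and the difference between them was not tested.

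**Figure D3:**
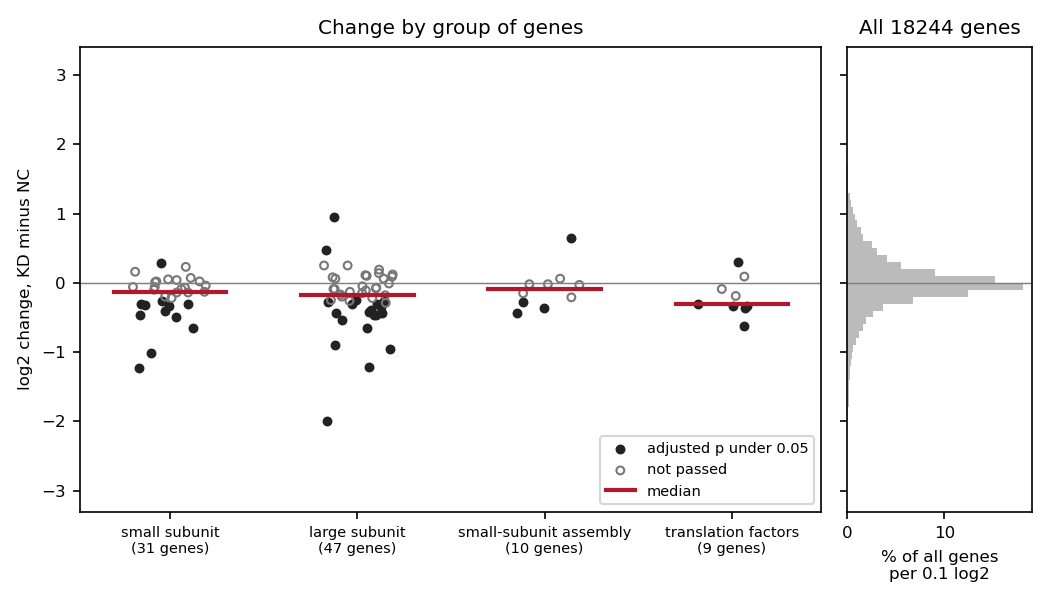
Log2 change (KD minus NC) of each gene in the small subunit, the large subunit without MRPL35, the small-subunit assembly factors and the translation factors (filled, adjusted p under 0.05; red bar, median; horizontal spread only separates points), beside the distribution of all genes. The 4 medians lie at -0.13, -0.18, -0.09 and -0.31, against -0.02 for all genes.

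Calls differed in whether they held in the alternatives. Leaving out an array also leaves fewer arrays to the fit. Lower calls over all genes numbered 2343 to 2623 without any 1 array except NC replicate 2, against 2903 with all. The estimate of MRPS23, for example, stayed between -0.28 and -0.24 while its call was lost. How much of a lost call comes from the smaller number of arrays was not tested. Of the 11 members that fell, 6 passed in every alternative that gave a value, namely MRPS27, MRPS2, MRPS11, MRPS18B, MRPS10 and MRPS22. The adjusted p of these ranged up to 0.0455, that of MRPS22 being the highest. Of the 19 members that did not pass, 16 passed in none of the alternatives, the exceptions being MRPS18C, CHCHD1 and MRPS9.

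**Figure D4:**
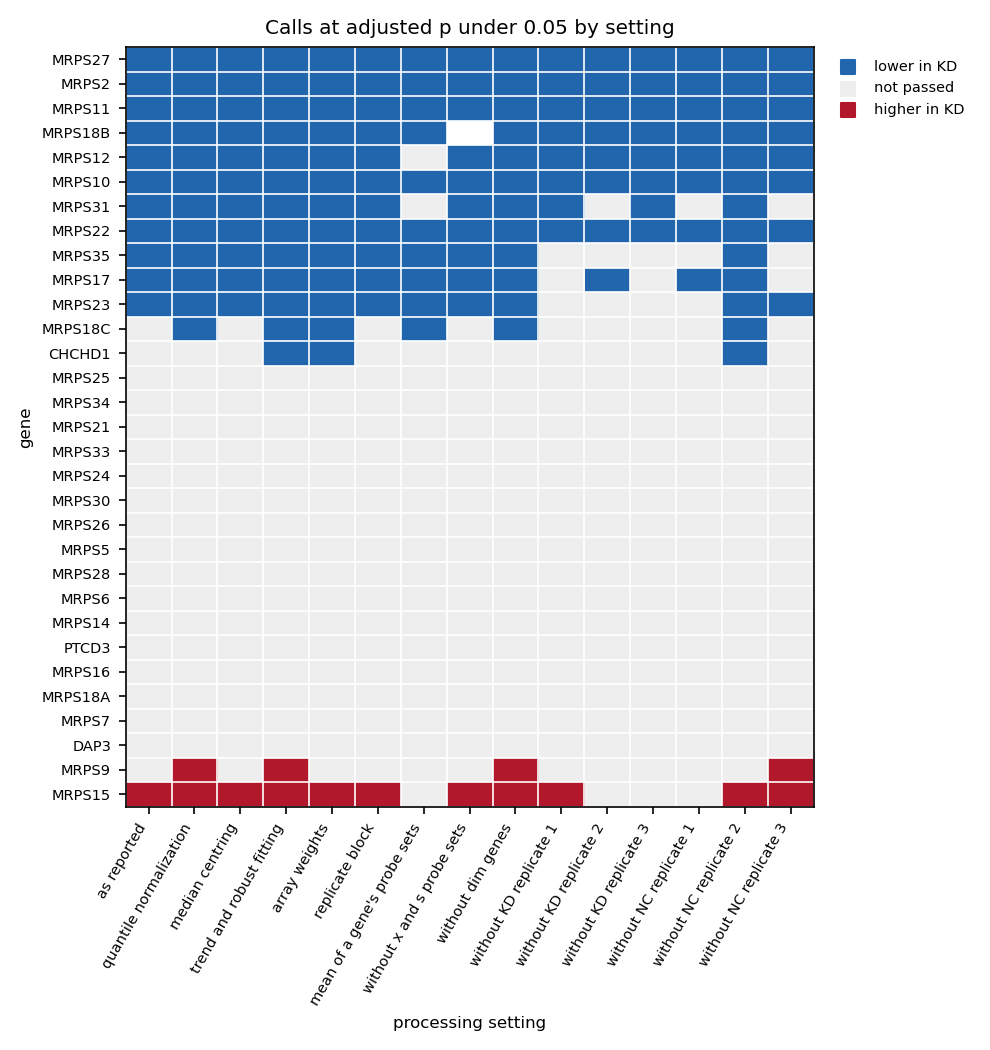
Call of each small-subunit gene at an adjusted p under 0.05 as reported and under 14 alternative settings (blue, lower in KD; grey, not passed; red, higher in KD; white, no value). The rows of MRPS27, MRPS2, MRPS11, MRPS18B, MRPS10 and MRPS22 are blue throughout apart from 1 white cell, and those of MRPS35, MRPS17, MRPS23, MRPS31 and MRPS15 lose their colour when single arrays are left out.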

How the data were processed

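The authors deposited 1 value per array for 49395 Affymetrix probe sets, taken here as log2 from their range (up to 14.32). Their summarisation, normalization and scanner background are not given in the sources used here. Gene symbols came from GEO's platform annotation (45278 with 1 symbol, 1333 with several, 2682 with none, 102 controls). Samples were grouped and numbered by title; the source names of NC replicates 2 and 3 carry other cell line numbers, but their characteristics give A549.

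All 18244 genes were fitted with limma 3.58.1 in R 4.3.3 (lmFit, eBayes, group as only term, two-sided; 4 residual and 4.67 prior degrees of freedom) and adjusted by Benjamini-Hochberg at a threshold of 0.05. Probe sets were fitted likewise. The fit was tested on simulated data. Values in every array are given for members that passed with groups apart, the MRPS18 paralogs, MRPS-named proteins of the large subunit, and the brightest and dimmest members. Of each other list at most 4 genes that passed were to be named, by size of change, plus the neighbours SLC5A3, SARS2 and PPP1R10. The array values of MRPS9, MRPS14, CHCHD1 and DAP3, and MRPL58, MTIF3, DNAJC9 and the promoter of MRPS10, fall outside that rule and were added after their values were seen, as were the fit without dim genes as a further background and the count without MRPS18A and MRPS30. Members, lists and tests were chosen with earlier results of these data known. Promoter letters are RefSeq's. Figures used matplotlib 3.10.9. The number of arrays limits the precision.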

Additional observations from a re-analysis of the deposited data

How the results depend on the processing

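Over 14 alternatives (quantile normalization, median centring, trend with robust fitting, weighted arrays, a replicate block, averaged probe sets, no x or s probe sets, no dim genes, and each array left out) the members that fell numbered 8 to 13, with 8 to 13 when single arrays were left out, and the median stayed between -0.153 and -0.091. Counts over all genes ran from 2343 to 3361 lower and from 2612 to 3637 higher. The members that rose numbered 2 with quantile normalization, with trend and robust fitting and without dim genes, 0 with averaged probe sets, and 0 to 2 with single arrays left out. Lower probe sets of members numbered 18 to 35 with single arrays left out; higher ones numbered 2 with quantile normalization, 0 with median centring and 0 to 1 with single arrays left out. MTIF3, reported at 0.30, was -0.01 with averaged probe sets and -0.31 without x and s probe sets. Signs also changed in genes that passed in neither case. With averaged probe sets the estimate was 0.01 for MRPS5, -0.08 for MRPS14, -0.20 for PTCD3, -0.16 for MRPS16 and -0.22 for KGD4; without x and s probe sets it was -0.02 for MRPS16. MRPS6 was at -0.02 with median centring and -0.03 with array weights, and MRPS14 at -0.00 with quantile normalization and with median centring and -0.10 with array weights. With single arrays left out MRPS5 ran from -0.09 to 0.00, MRPS28 from -0.15 to 0.03, MRPS6 from -0.04 to 0.04, MRPS14 from -0.13 to 0.16, PTCD3 from -0.01 to 0.04 and KGD4 from -0.01 to 0.17. The large subunit's higher calls numbered 4 or 5 under 5 of these settings, against 2 as reported. The cause of these shifts was not tested. MRPS18B and SLC5A3 have no value without x and s probe sets, and MTRF1 has none without dim genes.

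Replicate numbers are shared by the groups, but the deviations of same-numbered arrays correlated at 0.254, 0.265 and -0.0963, so they were not treated as pairs. With the replicate block 11 members fell and 1 rose, the same genes as without it, with the median at -0.130, 28 lower probe sets becoming 27, and 1 higher probe set. Background was not measured per probe set, so dim probe sets have no detection limit here.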
